A study of Rattus norvegicus with 6 samples.

Results

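Circular RNAs (circRNAs) are closed RNA loops, recognised in sequencing data by reads that join a downstream end to an upstream end, the back-splice junction. The 230 circRNAs described here were those annotated as intronic in the rat pineal gland, out of 2228 distinct circRNAs (10.3%). They were chosen as every entry of type intron in the union of 6 library tables, 1 per rat, and no circRNA changed its type between libraries. Total RNA was sequenced from the pineal glands of 6 rats aged 8 weeks, to compare day with night. Which rats belong to which is given in conflicting ways. By title and time tag, C01–C03 are night glands (4:00) and C04–C06 day glands (16:00). By the treatment protocol it is the reverse, with C01–C03 the light group (sunlight, 16:00 to 17:00) and C04–C06 the dark group (red light, 04:00 to 05:00). Rat numbers therefore name the groups below (n = 3 each), every difference is C01–C03 minus C04–C06, and none is assigned to day or night. The labels name no strain, agent or genetic change.

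The pineal gland secretes melatonin at night under adrenergic control from the suprachiasmatic clock. Most known circRNAs are made when the spliceosome joins a downstream 5′ splice site to an upstream 3′ splice site, which usually leaves exon sequence in the circle. RNA circles of intron sequence are known to arise in another way, when the lariat of an excised intron escapes debranching, and circles with an end at an unannotated exon can also be labelled intronic. The tables name host genes by Ensembl ID alone, and none of the 200 host IDs matched an entry of the RefSeq table at hand. Members are therefore named by position as the files give it, counted from 1, on a build that the sources leave uncertain, and neither the tissue nor the intron label could be checked against gene names or an annotation.

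The 230 intronic circRNAs carried 10861 of 116358 back-splice reads (9.33%). From C01–C06 the tables listed 75, 59, 69, 75, 86 and 85 of them, among 15506 to 22265 back-splice reads per library. The mean was 67.7 ± 8.08 in C01–C03 and 82 ± 6.08 in C04–C06 (SD, n = 3 each), with 75 in both C01 and C04. After allowing for depth, by the number expected at 15506 reads per library, the means were 64.8 ± 5.10 and 74.2 ± 5.67. Other types were listed less in C01–C03 too, with 510 ± 24 against 600 ± 13 exonic and 254 ± 8.19 against 278 ± 8.14 intergenic circRNAs. Intronic circRNAs made up 8.12% ± 0.617 and 8.54% ± 0.56 of those listed. Their share of the back-splice reads was 9.33% ± 0.0770 in C01–C03 and 9.37% ± 0.984 in C04–C06. The labels describe separate animals, and all libraries came from 1 flow cell lane.

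A few members held most of these reads, and most members were rare. The 10 with most reads held 72.0% of the intronic total, whereas 119 members (51.7%) had 5 reads or fewer over all libraries together. A library table lists a circRNA only from 2 back-splice reads upward, and no listing in any table had a circular share under 9.09%, so the absence of a circRNA from a table is no measurement of 0 reads. The circular share is the percentage of circular reads among all reads at its ends, computed as in the deposited tables from the back-splice reads, counted 2 times, and the linear reads, which cross the same ends without back-splicing. Of the 230, 146 (63.5%) were listed in 1 library only (median 3 reads) and 20 (8.70%) in all 6. Those 20, from 17 host genes, carried 78.2% of the intronic reads. Exonic circRNAs were listed in all 6 libraries in 12.5% of cases and in a single library in 46.0%, and intergenic ones in 13.0% and 50.5%. Among circRNAs with at least 5 reads in some library the figures for all 6 were 18.3% of 109 intronic, 17.5% of 956 exonic and 22.4% of 384 intergenic circRNAs, and these shares were not tested.

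**Figure D1:**
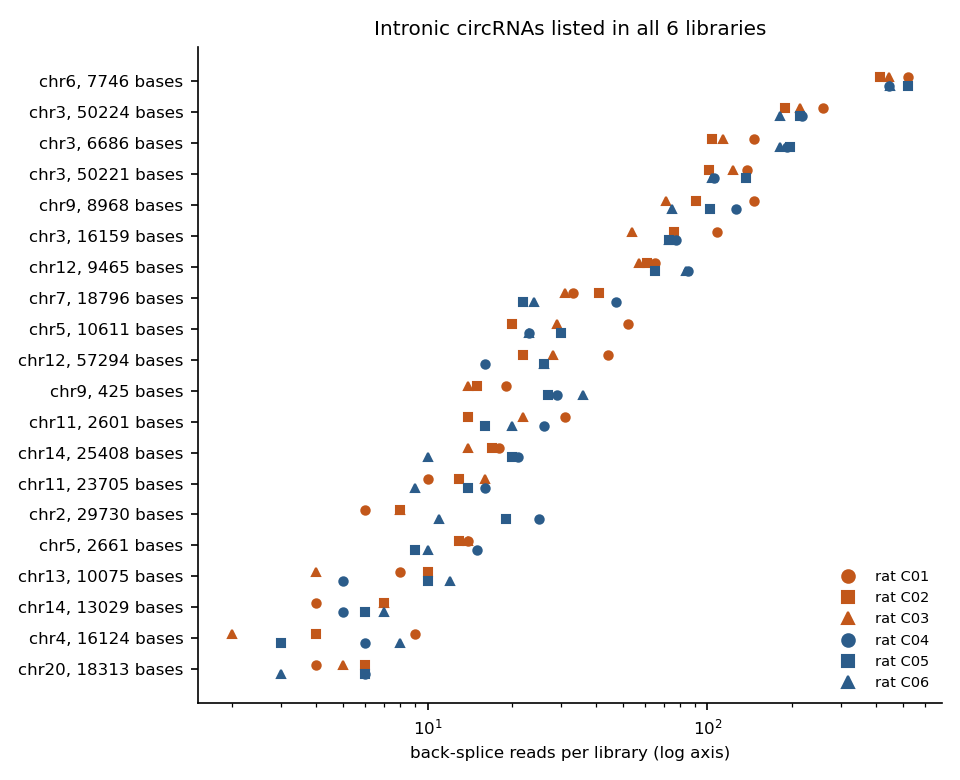
Back-splice reads per library (log axis) of the 20 intronic circRNAs listed in all 6 libraries, ordered by total and named by chromosome and genomic span; each point is 1 library, with orange for rats C01–C03 and blue for C04–C06. Reads of the most abundant member lay between 413 and 522, and those of the least abundant between 3 and 6.

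The most abundant intronic circRNA was chr6:76591791-76599536, on the minus strand and 7746 bases from end to end. It had 522, 413 and 444 reads in C01–C03 and 447, 521 and 448 in C04–C06, and it alone held 25.7% of all intronic reads. The 2 groups overlapped. Linear reads at its ends numbered 27 to 42 in C01–C03 and 26 to 45 in C04–C06, so that 96.6% ± 0.707 (SD, n = 6) of the reads there were circular, the highest mean share among the 20. The second caller, whose lists the authors deposited for the same libraries, gave it 501, 467, 483, 282, 583 and 362 reads from C01–C06. Its back-splice reads did not pass the test between groups (log2 difference 0.09, SE 0.06, edgeR adjusted p 1).

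The next members by reads included 4 circRNAs of a single host gene, given as ENSRNOG00000031760, on the plus strand of chromosome 3. They combine 2 starts that lie 3 bases apart, 104886422 and 104886425, with 2 ends, 104902580 and 104936645. Together they had 506, 367 and 454 reads in C01–C03 and 460, 487 and 415 in C04–C06, or 24.9% ± 2.59 (SD, n = 6) of the intronic reads of a library. The long circle from the first start, 50224 bases, was the most abundant, with 259, 190 and 214 reads against 217, 214 and 182. Its partner from the second start, 50221 bases, had 139, 101 and 123 against 106, 137 and 104. The short circle from the first start, 16159 bases, had 108, 76 and 54 against 77, 73 and 73. In all 6 libraries the first start gave more reads than the second for the long circles, whereas for the short ones the second start had 63 reads against 54 in C03.

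The short circle from the second start, 16156 bases, was not listed in C01 and C02 and had 63 reads in C03 and 60, 63 and 56 in C04–C06. At the ends of the short circle from the first start, C01 and C02 had 1103 and 897 linear reads. With that many linear reads, a share of 9.09% takes at least 56 and 45 back-splice reads, against 28 to 44 in the other libraries. No rule for listing is stated, and whether a minimum share left this circle out of C01 and C02 was not tested. The second caller did list the circle in C01 and C02, with 19 and 13 reads, and gave 33, 13, 35 and 23 in C03 to C06. The callers differed in which circles of this gene they saw. The second caller's reads for the short circles together were 75, 54, 62, 44, 71 and 54 from C01–C06. For the long circles they were 4, 4, 11, 0, 4 and 0, where the main tables had 286 to 398.

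Linear reads at this chromosome 3 gene differed between the groups, and back-splice reads did not pass. At the long circle from the first start, linear reads numbered 1025, 791 and 789 in C01–C03 and 416, 542 and 424 in C04–C06, without overlap (log2 difference 0.92, SE 0.07, edgeR adjusted p 1.8e-25). Back-splice reads of the same circle, scaled for depth, were 13248 ± 809 CPM (read counts normalised for library depth) against 11239 ± 613 (SD, n = 3 each), a log2 difference of 0.24 that did not pass (SE 0.08, edgeR adjusted p 0.24). The raw reads of the groups overlapped and the scaled ones did not. The circular share was 33.7% ± 1.37 in C01–C03 and 47.1% ± 3.56 in C04–C06. It was lower in each of C01–C03 than in any of C04–C06 and did not pass in limma (log2 difference of the ratio of circular to linear reads -0.81, SE 0.22, adjusted p 0.097). For the long circle from the second start the share was 21.9% ± 1.80 against 33.4% ± 0.424 (adjusted p 0.097 in limma), and for the short circle from the first start 14% ± 2.65 against 20.2% ± 0.938 (adjusted p 0.18 in limma). Circles with the same end had nearly the same linear reads, and the long and short circles have starts in common, so their tests are not independent.

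**Figure D2:**
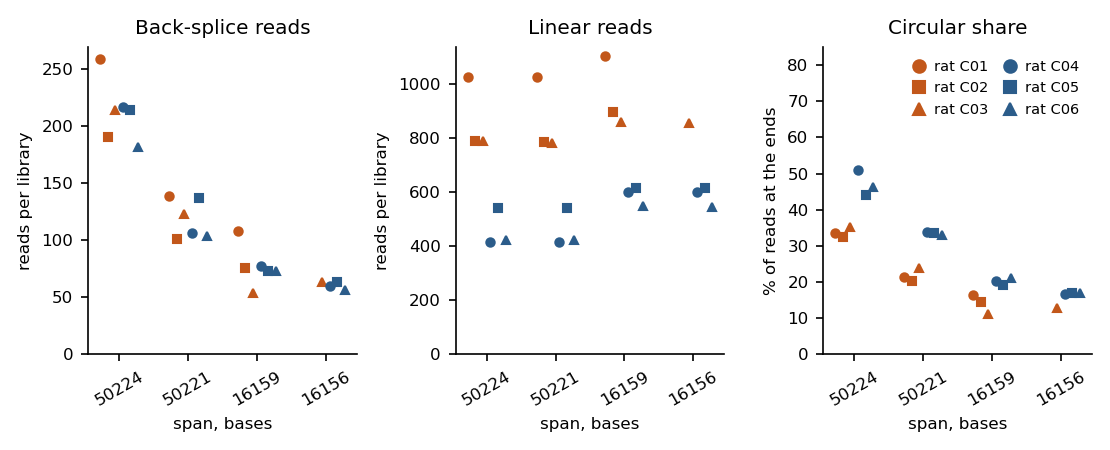
Back-splice reads, linear reads and circular share (%) per library for the 4 intronic circRNAs of the chromosome 3 host gene, named by span in bases; orange points are rats C01–C03 and blue points C04–C06, and unlisted libraries have no point. Linear reads of the 50224-base circle lay between 789 and 1025 in C01–C03 and between 416 and 542 in C04–C06, while the unscaled back-splice reads of the groups overlapped.

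Several other abundant members were mostly circular at their ends. On chromosome 9, chr9:113918918-113927885 (8968 bases, plus strand) had 147, 91 and 71 reads in C01–C03 and 127, 102 and 75 in C04–C06, with a circular share of 85.6% ± 2.83 (SD, n = 6). Its groups overlapped. On chromosome 12, chr12:40388299-40397763 (9465 bases, minus strand) had 65, 61 and 57 reads against 85, 65 and 84, with a share of 95.0% ± 3.22. On chromosome 5, chr5:47986680-47997290 (10611 bases, plus strand) had 52, 20 and 29 reads against 23, 30 and 23 and a share of 79.3% ± 5.82, and the second caller listed it in no library.

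Circular shares of the 20 members listed in all libraries spread widely. Only 5 averaged above 60%, namely the chr6, chr12, chr9 and chr5 circles just described and chr3:172518176-172524861 at 68.1% ± 1.87. At the other end were chr13:85849667-85859741 at 16.2% ± 4.62, the short chromosome 3 circle at 17.1% ± 3.83, chr14:81267948-81280976 at 17.5% ± 5.44, chr5:168944838-168947498 at 17.6% ± 4.06 and chr11:34600704-34624408 at 19.7% ± 5.16 (SD, n = 6 each). Over all 449 listings of intronic circRNAs, 217 (48.3%) had a share under 20%, 38 had one above 80%, and 7 had no linear read. No listing had a share under 9.09%, so low shares may be missing and these are the shares of listed circRNAs only.

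**Figure D3:**
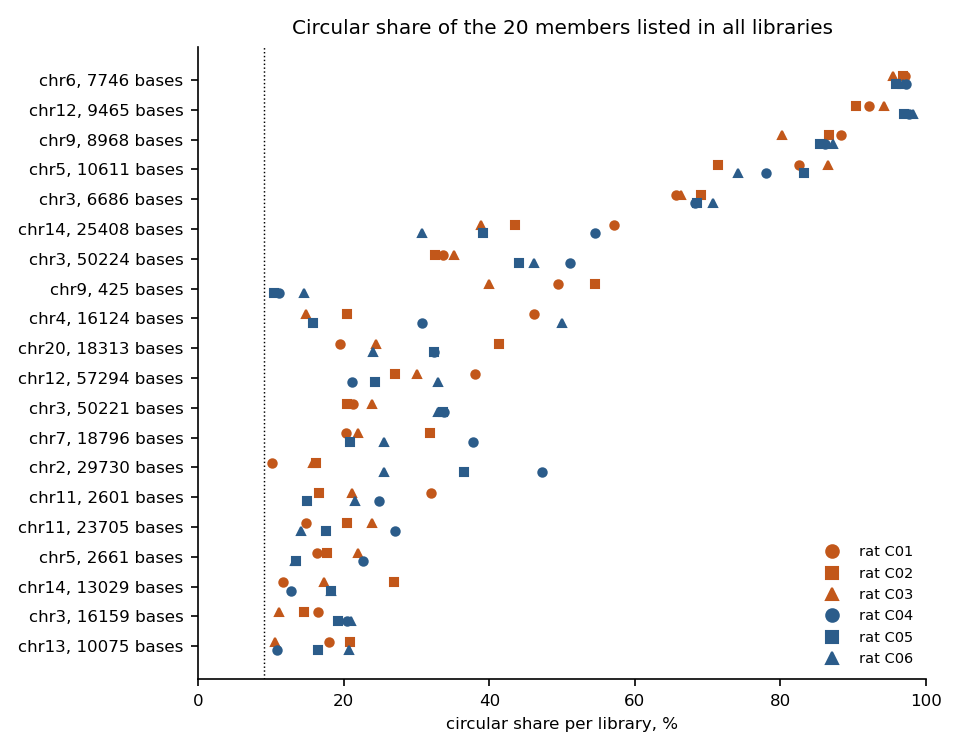
Circular share (%) in each library of the 20 intronic circRNAs listed in all 6 libraries, ordered by mean and named by chromosome and span; orange points are rats C01–C03, blue points C04–C06, and the dotted line marks 9.09%, the lowest share in any table. The 5 members at the top averaged 68.1% to 96.6%, and 13 averaged below 31%.

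Intronic circRNAs were compared with the other types within each library, as medians over listings, with exact two-sided permutation tests over the 6 libraries. An adjusted p of 0.0417 (Benjamini-Hochberg, over the 8 comparisons made) is given by the smallest exact p that 6 libraries allow. The circular share of intronic listings, 19.9% ± 1.80, was above that of exonic ones, 15.6% ± 0.371, in 6 of 6 libraries and below that of intergenic ones, 23.4% ± 1.47, in 6 of 6 (exact permutation, adjusted p = 0.0417 each). Among listings with at least 5 reads the difference from intergenic ones shrank from -3.56 to -1.13 percentage points and did not pass (exact permutation, adjusted p = 0.179). The difference from exonic ones was then 6.61 points. None of the 8 comparisons passed with that limit, where the smallest exact p gave an adjusted p of 0.05 (exact permutation). Back-splice reads per listing, 5.83 ± 0.983, were below those of exonic listings, 8.83 ± 0.408, in 6 of 6 libraries (exact permutation, adjusted p = 0.0417). Against intergenic listings, 6.83 ± 0.408, they were lower in 4 libraries and higher in 1, with a mean difference of -1 (SD 1.26, exact permutation, adjusted p = 0.214). Restricted to circRNAs listed in all 6 libraries, the difference from exonic listings was 0.25 reads in the opposite direction (exact permutation, adjusted p = 0.938). Because the same circRNAs recur over libraries, these tests speak of rats and not of independent circRNAs.

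Genomic span, the distance from one end to the other, ran from 148 to 196854 bases over the 230 members, with a median of 10184 and quartiles of 2367 and 32455. Per library the median was 11779 ± 1780 bases, close to 12111 ± 504 for exonic listings, with 3 libraries on each side (mean difference -331 bases, SD 1881, exact permutation, adjusted p = 0.688). It was below the 20442 ± 2053 bases of intergenic listings in 6 of 6 libraries (exact permutation, adjusted p = 0.0417). A span is fixed by position and many circRNAs recur over libraries, so the differences of the 6 libraries are partly the same difference repeated. Among circRNAs listed in all 6 libraries the intronic median was instead the longer, by 2456 bases. Those are the same circRNAs in every library, so this difference is fixed and a test over libraries measures nothing. Spans under 1 kb made up 15.2% of intronic circRNAs (35), against 6.81% of exonic and 6.50% of intergenic ones, and spans over 50 kb made up 15.2% (35), against 9.21% and 26.6%. These shares over the union were not tested.

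The share of reads by span rested on a few abundant circles. The 69 members of 5 to 20 kb held 63.1% of the intronic reads, with a median of 9 reads per member and 25.7% of all intronic reads in the chr6 circle alone. The 35 of 50 kb or more held 22.4%, most of them from the long chromosome 3 circles, and the 35 under 1 kb held 2.75%. Of the members under 1 kb, 28 were listed in a single library. Among members listed in at least 3 libraries (52), the shortest was chr9:82440779-82441203 with 425 bases and 14 to 36 reads per library. It was followed by chr18:3175483-3176344 (862 bases, 34 reads in 4 libraries), chr4:10775672-10777395 (1724 bases, 47 reads in 3), chr1:65850468-65852263 (1796 bases, 42 reads in 5) and chr20:29183423-29185783 (2361 bases, 10 reads in 3). The second caller listed the first 4 of these and not the fifth. The longest was chr20:4772233-4940017 with 167785 bases and 46 reads in 4 libraries. Next came chr7:20267849-20402059 (134211 bases, 11 reads in 3), chr6:123290813-123405248 (114436 bases, 11 reads in 3), chr12:9256476-9313769 (57294 bases, 162 reads in 6) and chr1:65115127-65166133 (51007 bases, 31 reads in 5). Of these 5 only the chr12 circle was listed by the second caller.

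**Figure D4:**
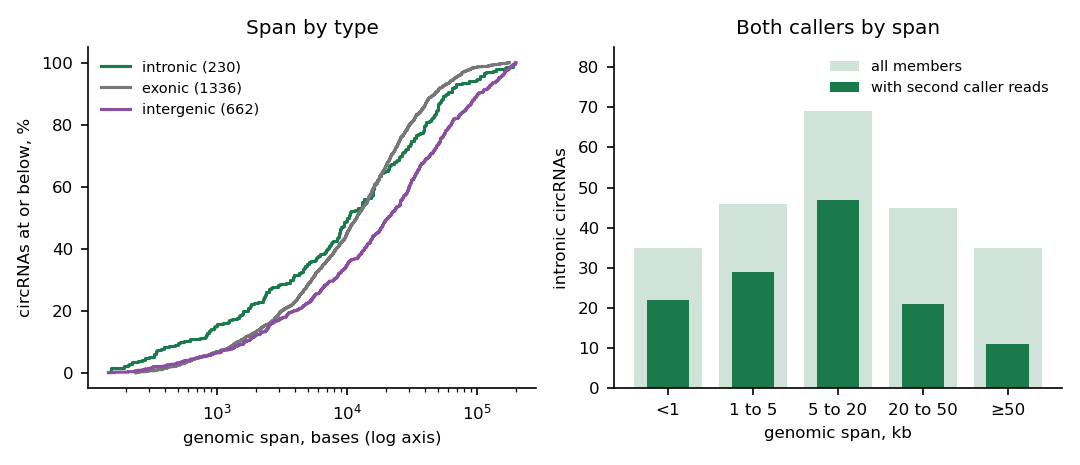
Left, the percentage of intronic, exonic and intergenic circRNAs at or below each genomic span (bases, log axis). Right, the number of intronic circRNAs per span class in kb, with those that the second caller listed in any library in dark green, which were 22 of 35 under 1 kb and 11 of 35 at 50 kb or more.

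The 230 members lay on 200 host genes, of which 174 had 1 intronic circRNA, 21 had 2 and 5 had 3 or more. They were found on all 20 autosomes and on X, with 23 on chromosome 1, 21 on chromosome 3 and 19 on chromosome 10, and on both strands (111 plus, 119 minus). Exonic circRNAs were also found for 74 of the hosts (37.0%). The host with most, ENSRNOG00000004201 on chromosome 7, had 5 intronic circRNAs. Among them chr7:78170329-78189124 had 33, 41 and 31 reads in C01–C03 and 47, 22 and 24 in C04–C06, and the other 4, of 32996 to 112498 bases, had 4 to 19 reads in 1 or 2 libraries. On chromosome 5 a host had chr5:168944838-168947498 with 14, 13 and 14 reads against 15, 9 and 10, and longer circles of 46424 and 45961 bases with 31 and 7 reads in all. The remaining hosts with 3 were on chromosome 6, around 75865044 and 123290813, and none of those 6 circles had more than 11 reads in all.

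Many members had an end in common with another circRNA. An end was shared with an exonic circRNA by 55 members (23.9%), always at a single end and never at both. The rule that assigns the type is not stated, so nothing is read from the lack of matches at both ends. These 55 had a median span of 26522 bases and 914 reads in all, against 7723 bases and 9947 reads for the other 175. The second caller listed 58.2% and 56.0% of them. Another intronic circRNA shared an end with 39 members, and an intergenic one with 2. At 14 members a partner circRNA lay within 100 bases at both ends, 9 with an intronic partner and 5 with an exonic one, and in all of them 1 end was identical while the other moved by 3 to 71 bases. The chromosome 6 host around 75865044, for example, had 3 circles with the common end 75873854 and starts at 75865044, 75865069 and 75865092, with 7, 4 and 9 reads in all.

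The second caller listed 130 of the 230 (56.5%) at the same ends in some library, against 77.9% of exonic and 51.4% of intergenic circRNAs. Within a library, 56.4% ± 7.29 of intronic listings were in that library's second list, below the 72.2% ± 5.49 of exonic and above the 47.1% ± 3.41 of intergenic listings in 6 of 6 libraries (exact permutation, adjusted p = 0.0417 each). Every entry of the second caller at a member (361 entries) was on the strand that the main tables give and is recorded with the splice signal GT/AG. So is every other entry of its lists (23484 in all), so the signal does not set these members apart. By span, the second caller listed 62.9% of the members under 1 kb, 68.1% of those of 5 to 20 kb and 31.4% of those of 50 kb or more.

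**Figure D5:**
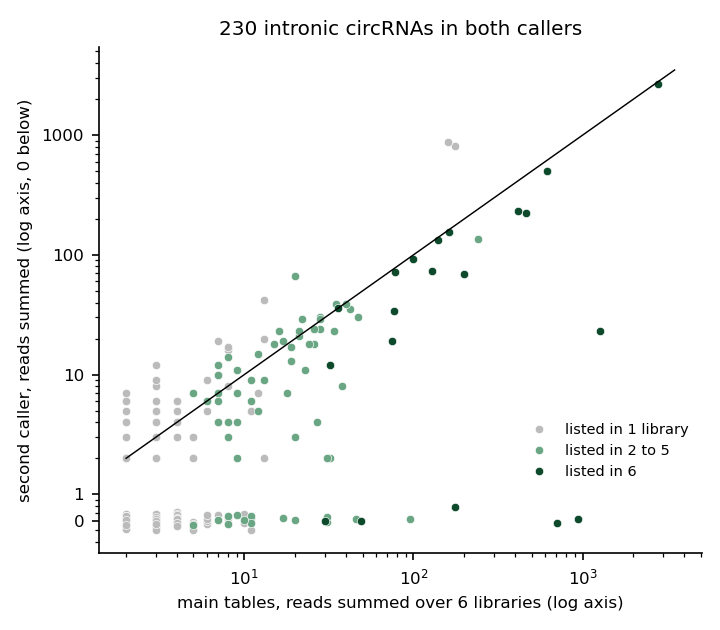
Reads summed over the 6 libraries in the main tables (horizontal, log axis) and in the second caller's lists (vertical, log axis, with members it did not list drawn at 0 with a small scatter) for the 230 intronic circRNAs, shaded by the number of main tables that list them; the line marks equal reads. The 2 grey points far above the line are the chr7 and chr4 circles that the main tables listed in C06 only.

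The callers differed in both directions, also among abundant members. Of the 49 members with at least 20 reads in the main tables, 10 had no read from the second caller in any library. The largest was chr3:172518176-172524861, with 147, 104 and 114 reads in C01–C03 and 192, 197 and 182 in C04–C06. Conversely, chr7:76837537-76845975 was listed by the main tables in C06 only, with 176 reads, whereas the second caller gave 148, 105, 126, 122, 178 and 130 from C01–C06. Likewise chr4:183498456-183537970 was listed in C06 only, with 160 reads, and the second caller gave 162, 168, 176, 100, 167 and 107. In C06 these 2 circles had 57 and 23 linear reads. Both were chosen for mention after their values were seen. They held 336 of the 2049 intronic reads of C06, whose intronic share of back-splice reads was the highest at 10.5% (8.74% to 9.38% elsewhere).

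Sharing between rats was counted in the second caller's lists as well. It listed 19 members in all 6 libraries, 8 of them not listed in all 6 main tables, while 5 members listed in all 6 main tables had none of its reads. Of the 146 members listed in 1 main table, it listed 3 in all 6 libraries, 22 in 2 to 5, 41 in 1 and 80 in none. Where both listed a member in a library (34 to 57 per library), log2 reads had a Pearson's r of 0.783 to 0.939 across members, which share the library and its depth.

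In the authors' TPM table, which holds 1413 circRNAs, 122 intronic ones were included. They had 1.35% ± 0.135 (SD, n = 6) of the TPM of a library, against 9.35% ± 0.625 of the back-splice reads. By both measures intronic circRNAs ranked below exonic (93.3% ± 0.638 of the TPM) and intergenic ones (5.34% ± 0.720). The TPM table holds only circRNAs that both callers listed, and what lies behind the different sizes of the shares was not tested.

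The comparison of the groups asked which intronic circRNAs differed between the pineal glands of C01–C03 and of C04–C06. In edgeR's test over 772 circRNAs (2 or more reads in 3 or more libraries), 52 intronic ones were tested and 1 passed an adjusted p of 0.05, lower in C01–C03. Over all circRNAs tested 12 passed (1.55%), 9 of them lower (1.17%), so 1 of 52 is near the background. At an unadjusted p under 0.05 there were 9.97% of all tested and 9 of the 52, but 6 of these 9 were listed in a single group and entered the test only through it, so nothing is read from that count. Among the 20 listed in all libraries, the groups' CPM did not overlap for 4, against 20.5% of all 273 circRNAs listed in all libraries.

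The member that passed was chr3:172518176-172524861 (6686 bases, plus strand), whose reads are given above. Its normalised level was 7284 ± 651 CPM in C01–C03 and 10488 ± 277 in C04–C06 (SD, n = 3 each), without overlap (log2 difference -0.52, SE 0.09, edgeR adjusted p 0.049). In whole glands, fewer cells with a circRNA and fewer copies per cell cannot be told apart. The call was lost without any of C02 to C06 (edgeR adjusted p 0.18, 0.094, 0.31, 0.51 and 0.31), with a log2 difference of -0.50 to -0.45. The member passed in 6 of the 13 alternatives run for it, with log2 differences of -0.58 to -0.45 over all 13. Those that passed included edgeR over circRNAs listed in all 6 libraries (adjusted p 0.024) and without C01 (0.03), DESeq2 (0.033) and limma-voom (0.011). Linear reads were lower too, at 154, 93 and 116 against 178, 180 and 151. They did not overlap once scaled to the linear reads of the circRNAs tested (log2 difference -0.49, SE 0.13, edgeR adjusted p 0.0012). The circular share was 67.0% ± 1.85 and 69.2% ± 1.28, overlapping (adjusted p 0.74 in limma).

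Linear reads at the ends passed for 8 of the 20 members listed in all libraries, 6 higher and 2 lower in C01–C03. Over all 273 circRNAs 31.9% passed, 18.7% higher and 13.2% lower, so the members' count is near the background. Of the 8, 3 are circles of the chromosome 3 host gene with ends in common, and are not independent. Outside it, linear reads at chr7:78170329-78189124 were higher in C01–C03, at 259, 176 and 220 against 155, 167 and 140 (log2 difference 0.50, SE 0.11, edgeR adjusted p 8.6e-05). At chr2:140357774-140387503 (29730 bases, minus strand) they were 106, 83 and 85 against 56, 66 and 64 (log2 difference 0.56, SE 0.18, edgeR adjusted p 0.011, and 0.071 without C04). At chr12:40388299-40397763 they were higher but few, 11, 13 and 7 against 4, 4 and 3 (edgeR adjusted p 0.034, and 0.072 to 0.16 without C01, C02, C04 or C06).

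The circular share passed at 1 of these 20 members, the 425-base chr9:82440779-82441203, against 2.2% of all 273 in either direction and 0.733% higher in C01–C03. Back-splice reads there were 19, 15 and 14 in C01–C03 and 29, 27 and 36 in C04–C06, while linear reads were 39, 25 and 42 against 463, 463 and 422 (log2 difference -3.66, SE 0.14, edgeR adjusted p 4.5e-57). Neither kind of read overlapped between the groups. The share was 48.0% ± 7.37 against 12.1% ± 2.21 (log2 difference 2.76, SE 0.30, limma adjusted p 0.0021), and it passed in all 9 alternatives run for this member, including without each rat. The second caller, which records no linear reads, gave the circle 18, 16 and 20 reads against 17, 30 and 31. Those raw reads overlapped and did not once scaled to the second caller's reads of the circRNAs tested (edgeR adjusted p 1). The main tables' back-splice reads did not pass (log2 difference -0.82, SE 0.30, edgeR adjusted p 0.34).

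The next member by circular share went the other way. At chr2:140357774-140387503 back-splice reads were 6, 8 and 8 in C01–C03 and 25, 19 and 11 in C04–C06, and the share was 14.1% ± 3.37 against 36.4% ± 10.8, without overlap. It missed the threshold (log2 difference -1.75, SE 0.39, limma adjusted p 0.052), and passed with a pseudocount of 1 (limma adjusted p 0.047) and without C06 (0.036) among alternatives that ranged up to 0.15. The second caller's reads were 0, 4 and 3 against 7, 17 and 3. At chr12:40388299-40397763 the share was 92.3% ± 1.92 against 97.7% ± 0.617, also lower in each of C01–C03 and also short of the threshold (log2 difference -1.69, SE 0.41, limma adjusted p 0.064), which it passed in limma without trend (adjusted p 0.029, with the other alternatives up to 0.20). The median log2 difference in share was -0.08 over the 20 members and -0.20 over all 273, and the groups' shares did not overlap for 6 of the 20, against 26.7% of all 273.

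Few intronic circRNAs were listed throughout a single group. In all of C01–C03 and none of C04–C06 there were 3 of the 230 intronic circRNAs (1.3%), against 13 of all 2228 (0.583%). In the other direction there were also 3 of 230 (1.3%), against 35 of all 2228 (1.57%). Of C01–C03 alone were chr19:34249087-34272192 with 10, 17 and 8 reads, chr17:1057871-1065593 with 10, 9 and 9, and chr6:123290813-123405248 with 5, 3 and 3. Of C04–C06 alone were chr7:109159849-109171920 with 8, 10 and 10, chr1:166208849-166259335 with 5, 3 and 5, and chr8:109541488-109563410 with 2, 2 and 3. The chr19 circle had circular shares of 9.52%, 18.8% and 9.82% in C01–C03, against a lowest share of 9.09% in any table. The others had 12.1% to 31.2%. Whether a minimum share left the chr19 circle out of C04–C06 was not tested. No fold or test value is given for these 6, because the values of the other group were entered as 0 without a measurement of 0 reads.

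The second caller separated these 6 circles. For chr1:166208849-166259335 it also listed C04–C06 only, with 4, 2 and 3 reads. For chr7:109159849-109171920 it gave 0, 0 and 4 reads in C01–C03 and 6, 10 and 9 in C04–C06. For chr19:34249087-34272192 it gave 4, 19 and 8 against 6, 2 and 0, and for chr17:1057871-1065593 8, 2 and 2 against 0, 3 and 9, so both appeared in either group. It listed the remaining 2 in no library. An exonic circRNA with the same start as the chr19 circle ended 47 bases before it.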

How the data were processed

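Per the file headers, the authors deposited, for each of 6 libraries, a table in the format of the caller CIRI with counts of back-splice and non-junction (linear) reads and the circular fraction, and a list in the format of find_circ with read counts (the second caller). They also deposited TPM for the series. No aligner, caller version or setting is stated. The build is uncertain: the files carry rat Ensembl IDs, while mm9, a mouse build, is listed beside DESeq in the submitters' processing notes. Second caller starts count from 0 and were raised by 1.

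Counts were joined by position and an unlisted circRNA entered as 0. The tests, in R 4.3.3, were edgeR 4.0.16 (TMM, quasi-likelihood) for both kinds of read and limma 3.58.1 (trend) for log2 of circular reads over linear reads with 0.5 added to each, over whole tables with Benjamini-Hochberg adjustment at 0.05. In edgeR the SE is the log2 difference divided by the square root of F. Scaled reads are relative to reads of the same kind summed over the circRNAs tested, not to the sequencing depth of a library. Types were compared with exact paired permutation tests (scipy 1.17.1). The tests were also run on simulated counts with large changes and without unlisted values. That setting is unlike these data, so no rate of recovery or of false calls is taken from it. All 15 pairs of libraries differed beyond sampling noise (chi-square p at most 1.88e-05).

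The members and tests were chosen with earlier results of these data known. Members were named if they passed a test or were among its 5 smallest p, were listed in 1 group only, were among the 10 with most reads, the 5 of highest or lowest circular share, the 5 longest or shortest in at least 3 libraries, or lay on hosts with 3 or more. Alternatives were the second caller's counts, DESeq2 1.42.0, limma-voom, other filters and normalizations, and leaving out each rat. Counts of the second caller's distinct reads, and of near reads counted once, were added after the data were seen. Gene lists fixed for the hosts could not be used because no host ID was matched.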

Additional observations from a re-analysis of the deposited data

How the results depend on the processing

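The tables held 15506 to 22265 back-splice reads per library, and members listed in fewer than 3 libraries were not tested, including abundant ones that the second caller listed in all 6. Whether depth limits the calls was not tested. For back-splice reads, edgeR called 1 intronic circRNA. It called 0 with RLE normalization (9 at an unadjusted p under 0.05) and 0 with near reads counted once (9, at an adjusted p of 0.051 for chr3:172518176-172524861). It called 1 with library size only and 1 among circRNAs listed in all 6 libraries. With the second caller's counts (6) or its distinct reads (8) it also called 0. The second caller has no reads for the chr3 circle, so these 2 settings could not call it. No filter, DESeq2 and limma-voom each gave 4. Without a filter all 4 were lower in C01–C03 and included the chr3 circle (edgeR adjusted p 0.0052). The rest of that setting's calls are not named here. It also tested members listed in fewer than 3 libraries, with unlisted values entered as 0. For DESeq2 and limma-voom the 3 besides the chr3 circle were chr19:34249087-34272192, chr17:1057871-1065593 and chr7:109159849-109171920, none of which passed in edgeR. Each was listed in 1 group only, and its remaining values were entered as 0. Calls on such values are not evidence of a difference. In edgeR leaving out each rat gave 0 to 1. The 1 called without C03 was not the chr3 circle, whose edgeR adjusted p was then 0.094. For the circular share limma called 1, and 2 with a pseudocount of 1 or without trend, and 1 to 2 leaving out each rat. For linear reads the count stayed at 6 to 8 under all 10 alternatives. The cause of these differences was not tested.

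With at least 5 back-splice reads, no comparison with another type passed, and the smallest adjusted p was 0.05. That value again stands for the smallest exact p that 6 libraries allow, which fewer of the 8 comparisons then reached. Missing the threshold therefore does not by itself mean a smaller difference. Intronic minus exonic was -12.2 percentage points in the share also in the second list, 6.61 in circular share and -2.5 reads. Over all listings these were -15.8, 4.27 and -3. Intronic minus intergenic was 10.4 and -1.13 points and -6291 bases, against 9.33, -3.56 and -8663 over all listings. Only the -1.13 among these 6 was above the smallest p (exact permutation, adjusted p 0.179). Among circRNAs listed in all 6 libraries, the span of intronic listings exceeded the exonic by 2456 bases, and the difference in reads reversed to 0.25. That span difference is the same in every library, so no test is given for it. With 1 rat left out, 5 libraries cannot reach below an exact p of 0.0625 (adjusted 0.0833), so none could pass. The ranges were then -16.9 to -15.1 and 7.91 to 10.4 points for the second list, -9396 to -8058 bases against intergenic, 3.73 to 4.73 and -4.16 to -2.8 points for circular share, and -3.4 to -2.8 reads against exonic. The number listed per library, with a difference of -14.3 in C01–C03, differed by -5.67 with at least 5 reads and by -18 to -10 without each rat. Exonic and intergenic circRNAs were also listed in smaller number in C01–C03. The share listed in all 6 libraries moved to 18.3% (intronic), 17.5% (exonic) and 22.4% (intergenic) with at least 5 reads. No paired analysis was possible because the rat numbers of the groups are not shared.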

Other observations

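Back-splice reads often lay close together on the flow cell. The read names in the main tables give tile and coordinates, and when reads of 1 circRNA on 1 tile within 2500 coordinate units of each other were counted once, 18.8% ± 0.981 (SD, n = 6) of the intronic reads of a library dropped out. The percentages for exonic and intergenic reads were 19.0% ± 0.922 and 18.5% ± 1.26, so the types differed by less than the spread between libraries. The most abundant member, chr6:76591791-76599536, went from 522, 413, 444, 447, 521 and 448 reads in C01–C06 to 411, 340, 366, 363, 402 and 366. Counted this way, 8 of the 230 members (3.48%) rested on a single read, all of them listed in 1 library, against 1.44% of all circRNAs. The second caller's own number of distinct reads was lower still for that member, 170, 153, 154, 96, 166 and 124, out of 501, 467, 483, 282, 583 and 362. Whether near reads are copies of 1 molecule was not tested.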
